A study of Mus musculus with 12 samples.

Results

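Interferon response genes, the genes that cells switch on after an interferon signal together with their regulators, were followed in the hippocampus of mice that carry a truncated splicing protein. The list named 35 genes, and a gene was taken where its symbol, or 1 part of a joined symbol, stood in the deposited expression table. Of these, 34 were found among 23352 gene entries, and 26 of the 34 passed the expression filter of at least 1 FPKM (fragments per kilobase of transcript per M mapped fragments) in at least 3 of the 12 libraries. The exception to the match was Ifi27, which has no entry under that symbol. RefSeq gives Ifi27l1 as an older name of the same gene, and the values of that entry are given apart from the counts. The 8 genes below the filter were Zbp1, Oas1a, Mx1, Mx2, Parp14, Ifi44, Cxcl10 and Rsad2.

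The study set N40K transgenic mice of the Tg396 line against non-transgenic wild-type littermates at 12 and at 3 months of age. N40K is a truncated form of U1-70K, the protein that Snrnp70 encodes, and it is made in neurons from a modified CaMKIIa promoter. The RNA is from the whole tissue, neurons and other cells together. All mice were of the C57BL/6J strain, no treatment is labelled, and each of the 4 groups (N40K at 12 months, wild type at 12 months, N40K at 3 months, wild type at 3 months) held 3 libraries of poly-A RNA. All N40K libraries come from a single transgenic line. The labels do not say that each library came from a separate mouse, so the p-values measure the spread between these libraries.

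Interferons act through receptors on the cell surface that turn on the JAK kinases, and type I interferon then leads to the assembly of the factor ISGF3, which holds STAT2 and IRF9. ISGF3 binds the interferon-stimulated response element (ISRE) in front of its target genes, whose products sense foreign nucleic acid, block viral growth and tag proteins with the ubiquitin-like ISG15. In brain, microglia, endothelial cells, astrocytes and neurons can all answer interferon, and in RNA from whole tissue fewer cells of a type and less RNA per cell cannot be told apart.

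The promoters of Ifit1, Gbp3, Isg15 and Stat2 are shown as examples that carry the letters of the response element. Each gene was called in at least 1 comparison, Isg15 only in that of the ages in wild type. The letters searched were GAAA, then 2 bases of any kind, then GAAA again, on both strands, and matches were allowed to overlap. Each window runs from 250 bases before to 50 bases after the gene start in RefSeq (build GRCm38.p6), is printed on the gene's strand, and has the matched letters in capitals.
Ifit1 chr19:34640639-34640938 (+): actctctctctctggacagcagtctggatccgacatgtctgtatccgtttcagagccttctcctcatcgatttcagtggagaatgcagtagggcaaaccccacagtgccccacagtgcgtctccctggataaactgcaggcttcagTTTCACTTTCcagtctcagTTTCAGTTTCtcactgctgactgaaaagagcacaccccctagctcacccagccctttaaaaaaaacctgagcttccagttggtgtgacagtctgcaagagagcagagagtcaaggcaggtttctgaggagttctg
Gbp3 chr3:142559794-142560093 (+): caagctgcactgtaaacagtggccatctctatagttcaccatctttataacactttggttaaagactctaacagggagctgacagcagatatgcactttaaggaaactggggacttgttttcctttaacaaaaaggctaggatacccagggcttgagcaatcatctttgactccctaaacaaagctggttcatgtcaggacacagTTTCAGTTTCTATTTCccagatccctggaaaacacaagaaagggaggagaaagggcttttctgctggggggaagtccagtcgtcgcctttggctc
Isg15 chr4:156200769-156201068 (-): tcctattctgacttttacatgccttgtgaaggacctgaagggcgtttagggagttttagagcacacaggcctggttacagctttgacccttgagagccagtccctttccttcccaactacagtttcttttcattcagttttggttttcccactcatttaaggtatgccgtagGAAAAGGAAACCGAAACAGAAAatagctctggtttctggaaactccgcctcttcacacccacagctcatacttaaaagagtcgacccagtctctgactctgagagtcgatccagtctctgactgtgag
Stat2 chr10:128270248-128270547 (+): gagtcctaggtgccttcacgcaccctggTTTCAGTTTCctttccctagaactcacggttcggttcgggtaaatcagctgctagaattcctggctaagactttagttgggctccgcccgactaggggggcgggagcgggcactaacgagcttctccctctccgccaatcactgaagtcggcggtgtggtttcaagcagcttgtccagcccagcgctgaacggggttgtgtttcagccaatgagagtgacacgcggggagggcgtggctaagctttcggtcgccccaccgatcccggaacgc

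Ifit1 held separate matches that began at -104 and -85 from the gene start. The matches of Gbp3 began at -45 and -39 and shared bases, and so did those of Isg15 at -78, -72 and -66. Stat2 held a single match, at -222. A second RefSeq window of Gbp3 had none. The table had a promoter for 25 of the 34 genes, and 15 of these 25 (60%) held the letters in at least 1 window, as did 1079 of 27025 genes in the whole table (3.99%). By window, the string stood in 15 of 29 for the interferon genes and in 1131 of 32851 overall (3.44%). Of the genes that passed the filter, 12 held the string and 9 with a window did not. These 9 were Dtx3l, Ifi35, Ifit2, Irf1, Irf7, Irf9, Oasl2, Trim25 and Xaf1, so several of the genes called below lack it. These matches describe letters in a window, not bound sites.

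The label check on Snrnp70 gave 305, 320.02 and 259 FPKM in 12-month N40K libraries and 138, 96.0 and 133 FPKM in 12-month wild-type libraries. At 3 months it stood at 399, 401 and 377 FPKM in N40K libraries and at 179, 161 and 179 FPKM in wild-type libraries, so the genotypes did not overlap at either age. Estimated depth was about 39.9 to 97.4 M reads per library. Xist, which females express, was at 17.3 FPKM in 1 N40K library (replicate 3) and at 14.6 and 13.5 FPKM in wild-type libraries 2 and 3 at 3 months, and at 0.112 FPKM or less in the other 9 libraries. The labels give no sex. As read from Xist, sex was uneven between the ages, most of all in wild type, and between the genotypes at 3 months. It cannot be fully told apart from age or from the 3-month genotype difference. Ttr, a choroid plexus gene, ran from 25.2 to 2977 FPKM in 12-month N40K libraries, from 1053 to 2152 FPKM in 12-month wild-type libraries, from 74.3 to 1700 FPKM in 3-month N40K libraries and from 122 to 5813 FPKM in 3-month wild-type libraries. The libraries of the ages carry separate runs of laboratory numbers, so age and a possible processing batch cannot be told apart. Against the tissue label, all 8 neuron markers and all 6 hippocampal neuron markers were detected in the data, with summed levels from 2181 to 2599 FPKM and from 172 to 202 FPKM.

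The interferon genes were expressed at low levels. Their means over the 12 libraries ran from 0.0940 FPKM for Mx1 to 8.20 FPKM for Stat2, with a median of 1.62 FPKM. The heat map of single libraries shows the members in their role groups, and in it the 12-month wild-type columns are blue for most rows. For 25 of the 34 genes the lowest of all 12 libraries was a 12-month wild-type library. The same count over all genes was not made, so the 25 are a description only.

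**Figure D1:**
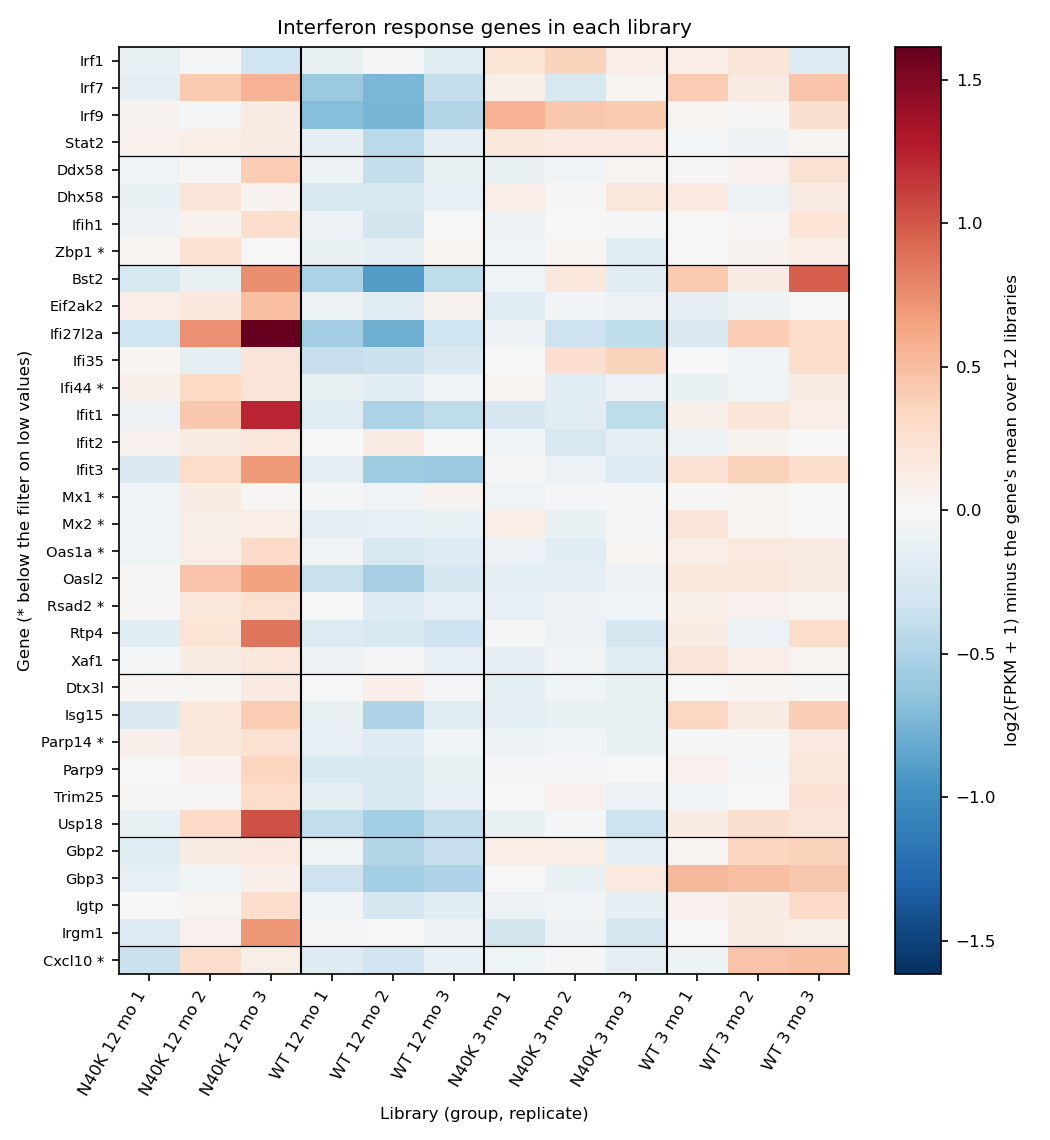
Level of each of the 34 interferon response genes (rows, grouped by role) in each of the 12 libraries (columns), as log2(FPKM + 1) minus the gene's mean over the libraries. Red is above and blue below that mean, and an asterisk marks the 8 genes below the filter. The 12-month N40K library 3 was the highest of all libraries for 19 genes, a count not made over all genes.

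At 12 months, 11 of the 26 tested interferon genes were higher in N40K than in wild-type hippocampus and 0 were lower. The test was limma on log2(FPKM + 1) with Benjamini-Hochberg adjustment over all 13945 genes and a threshold of 0.05. The higher genes made up 42.3% of the tested members, and over all genes 11.2% were called higher and 7.71% lower. The interferon genes were chosen with earlier results of these data known, so these shares are a description of the list. The 26 had a median difference of 0.34 (log2), against 0.0066 over all genes, and 25 of 26 differences were positive. The median was 0.34 under median-ratio scaling and 0.27 under quantile normalization. None of the 26 was lower at an unadjusted p under 0.05. The groups did not overlap for 17 of the 26 (65.4%), all with N40K above, where 21.3% of all genes did so in that direction and 17.5% in the other. Of the 26, Dhx58, Ifih1, Ifit1, Rtp4 and Usp18 reached 1 FPKM in 12-month N40K libraries and in no 12-month wild-type library, so within this comparison they passed the filter through the higher group alone, and the counts over the 26 carry that selection. Of the other 21, 9 were called higher (42.9%) with a median of 0.34, and without a filter 12 of all 34 genes were called higher and 0 lower. The share of all entries called without a filter is not given.

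Among the transcription factors, 3 of 4 rose. Irf9, the DNA-binding subunit of ISGF3, had 6.01, 5.68 and 6.38 FPKM in 12-month N40K libraries, against 3.19, 2.99 and 3.86 FPKM in 12-month wild-type libraries. The groups were well apart, with means of 6.03 ± 0.351 and 3.35 ± 0.454 FPKM (SD, n = 3 each), a ratio of 1.80. On the log2 scale Irf9 rose by 0.70 ± 0.08 (SE, limma adjusted p = 4.43e-04). Its exons overlap those of Rnf31 on the same strand, and Rnf31 was itself higher by 0.31 ± 0.09 (limma adjusted p = 0.0348), so reads of the pair may not be fully separated.

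Stat2, the partner of Irf9 in ISGF3, had 8.59, 8.82 and 8.96 FPKM in 12-month N40K libraries and 7.25, 5.78 and 7.26 FPKM in wild-type libraries. The N40K values lay close together above all wild-type values, and Stat2 rose by 0.34 ± 0.07 (limma adjusted p = 0.00747). Irf7, the factor that amplifies type I interferon production, had 1.42, 2.62 and 2.98 FPKM in N40K libraries and 0.785, 0.619 and 1.06 FPKM in wild-type libraries. The mean ratio was 2.85 and Irf7 rose by 0.85 ± 0.18 (limma adjusted p = 0.00752). Its overlap partner Phrf1 differed by -0.07 ± 0.06 (limma adjusted p = 0.424). Irf1, a factor that also answers interferon gamma, had 4.22, 4.60 and 3.53 FPKM in N40K libraries and 4.23, 4.60 and 4.07 FPKM in wild-type libraries. Its groups overlapped, and it was the only negative difference of the 26, at -0.06 ± 0.11 (limma adjusted p = 0.761).

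Of the antiviral effectors, 5 of 10 tested rose, and the median difference was 0.63 (log2). Oasl2, a relative of the oligoadenylate synthetases that detect double-stranded RNA, had 1.60, 2.52 and 3.01 FPKM in N40K libraries and 0.990, 0.769 and 1.11 FPKM in wild-type libraries. All N40K libraries stood above all wild-type libraries, by a ratio of 2.49 in means, and Oasl2 rose by 0.77 ± 0.13 (limma adjusted p = 0.00282). Ifit1, which binds viral RNA that lacks the host's cap modification, had 0.967, 1.83 and 3.92 FPKM in N40K libraries and 0.824, 0.470 and 0.574 FPKM in wild-type libraries. The N40K libraries were unequal but each lay above every wild-type library, with a mean ratio of 3.59, and Ifit1 rose by 0.90 ± 0.24 (limma adjusted p = 0.0263).

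Ifit3, which stabilises IFIT1, had 3.66, 5.73 and 7.78 FPKM in N40K libraries and 3.92, 2.69 and 2.65 FPKM in wild-type libraries. The lowest N40K library lay below the highest wild-type library, and Ifit3 rose by 0.69 ± 0.19 (limma adjusted p = 0.0262). It has a near-identical copy in the mouse genome, so its level is uncertain. Ifi27l2a, an interferon-induced mitochondrial protein in mouse, had 2.12, 5.53 and 11.0 FPKM in N40K libraries and 1.64, 1.27 and 2.14 FPKM in wild-type libraries. Here N40K library 1 lay inside the wild-type range, and Ifi27l2a rose by 1.23 ± 0.37 (limma adjusted p = 0.0385), the largest difference of the 26. Eif2ak2, the RNA-activated kinase PKR that halts translation, had 1.98, 2.11 and 2.90 FPKM in N40K libraries and 1.62, 1.46 and 1.88 FPKM in wild-type libraries, and rose by 0.32 ± 0.10 (limma adjusted p = 0.0461).

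The other tested effectors were positive without passing the threshold. Bst2, the tetherin that holds budding virus at the membrane, had 5.92, 6.71 and 12.9 FPKM in N40K libraries and 4.82, 3.44 and 5.23 FPKM in wild-type libraries. These did not overlap, yet the difference of 0.74 ± 0.26 had a limma adjusted p of 0.0706. Ifi35, an interferon-induced protein that binds N-Myc interactor, differed by 0.34 ± 0.12 (limma adjusted p = 0.0688). Rtp4, a receptor transporter protein with antiviral action, differed by 0.57, Xaf1, a pro-apoptotic XIAP-binding protein, by 0.18, and Ifit2, another RNA-binding IFIT protein, by 0.07.

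Of the genes for ubiquitin-like and ADP-ribose modification, 2 of 5 tested rose. Usp18, which strips ISG15 from proteins and dampens the type I receptor, had 0.832, 1.47 and 3.08 FPKM in N40K libraries and 0.508, 0.356 and 0.524 FPKM in wild-type libraries. All N40K libraries lay above all wild-type libraries, with a mean ratio of 3.87, the highest of the members called, and Usp18 rose by 0.86 ± 0.22 (limma adjusted p = 0.0206). Parp9, which acts with the ubiquitin ligase Dtx3l, had 1.49, 1.60 and 2.16 FPKM in N40K libraries and 1.08, 1.07 and 1.28 FPKM in wild-type libraries, and rose by 0.35 ± 0.09 (limma adjusted p = 0.0212). Parp9 and Dtx3l are transcribed from opposite strands with overlapping exons, so unstranded counting could mix them, and Dtx3l differed by 0.05. Isg15, the ubiquitin-like modifier, had 1.73, 2.62 and 3.26 FPKM in N40K libraries and 1.97, 1.28 and 1.80 FPKM in wild-type libraries, which overlap, and differed by 0.38 (limma adjusted p = 0.0880). Trim25, a ubiquitin ligase of the RIG-I pathway, differed by 0.28 ± 0.10 (limma adjusted p = 0.0657).

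Among the interferon-induced GTPases, which act on membranes that enclose pathogens, 1 of 4 rose. Gbp3 had 2.15, 2.29 and 2.66 FPKM in N40K libraries and 1.73, 1.37 and 1.44 FPKM in wild-type libraries, with no overlap, and rose by 0.42 ± 0.08 (limma adjusted p = 0.00658). Igtp differed by 0.28 ± 0.09 (limma adjusted p = 0.0583), Gbp2 by 0.33 and Irgm1 by 0.22. The GTPase families have close paralogs, and Igtp also overlaps Irgm2, so their split is uncertain. None of the 3 tested sensors of viral RNA was called: Ddx58 (RIG-I) differed by 0.32, Dhx58 (LGP2) by 0.26 and Ifih1 (MDA5) by 0.21, with limma adjusted p from 0.0872 to 0.185.

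**Figure D2:**
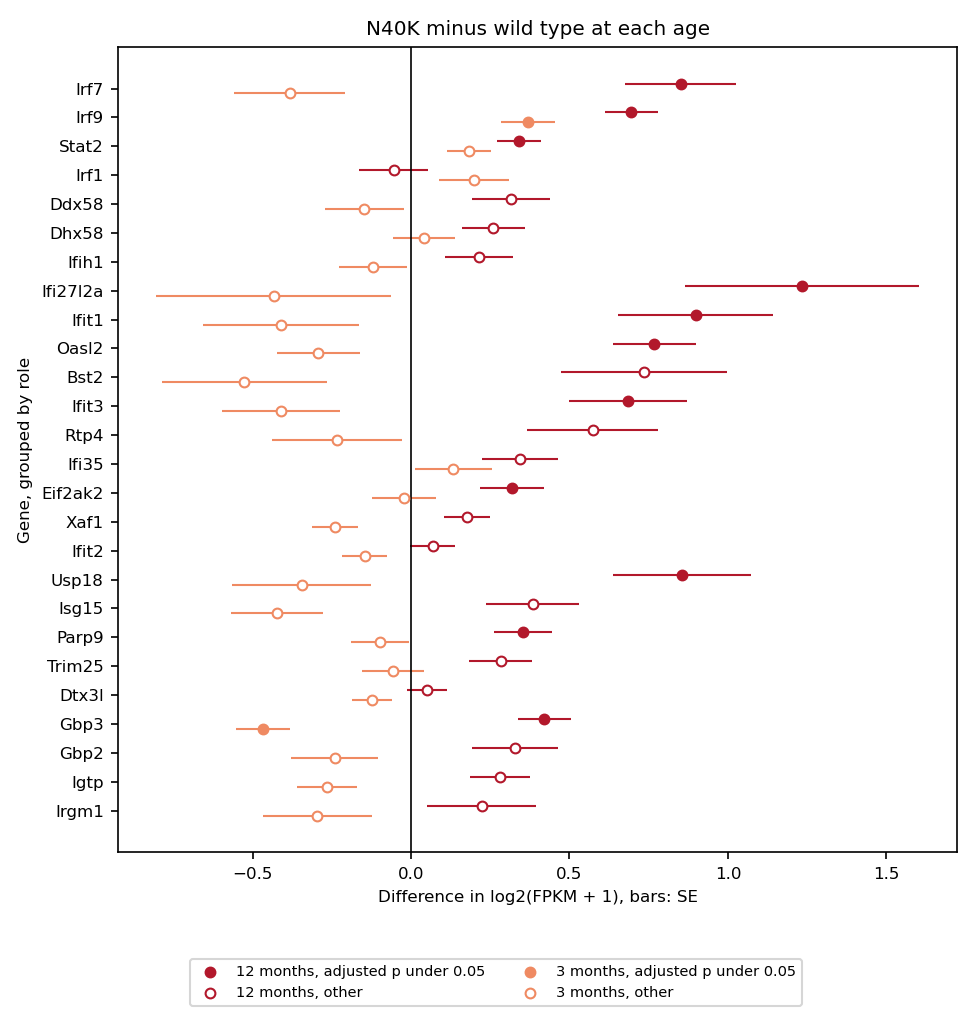
Difference N40K minus wild type in log2(FPKM + 1) for the 26 tested interferon genes (rows, grouped by role) at 12 months (dark red) and at 3 months (orange), with SE bars. Filled points passed an adjusted p of 0.05. At 12 months 25 of 26 points lie right of 0, and at 3 months 21 lie left of 0.

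The 8 genes below the filter were read without it, where their adjusted p-values come from limma over all entries of the table. Parp14, another ADP-ribosyltransferase, had 0.716, 0.821 and 0.922 FPKM in 12-month N40K libraries and 0.467, 0.392 and 0.536 FPKM in 12-month wild-type libraries, a difference of 0.31 ± 0.06 (limma adjusted p = 0.00815). Ifi44, an interferon-induced cytoplasmic protein, differed by 0.32 ± 0.08 (limma adjusted p = 0.0256), and Rsad2, the antiviral enzyme viperin, by 0.26 ± 0.06 (limma adjusted p = 0.0231). The synthetase Oas1a differed by 0.29, the antiviral GTPases Mx1 and Mx2 by 0.04 and 0.17, the nucleic acid sensor Zbp1 by 0.16 and the chemokine Cxcl10 by 0.22, with limma adjusted p from 0.0769 to 0.559. Over all 34 genes, 21 did not overlap between the 12-month groups and 0 of these had wild type above. The same count over all entries was not made. The shares given above, 21.3% with N40K above and 17.5% with wild type above, cover only genes that passed the filter. Ifi27l1, the entry that may stand for Ifi27, averaged 39.2 ± 14.9 FPKM in 12-month N40K and 34.8 ± 2.99 FPKM in 12-month wild-type libraries (SD, n = 3 each) and differed by 0.11 (limma adjusted p = 0.735).

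The size of the 12-month difference varied between the N40K libraries. Averaged over the 26 tested genes and centred on the mean of all libraries, the level was -0.08, 0.15 and 0.44 (log2) in N40K libraries 1, 2 and 3, and -0.23, -0.37 and -0.23 in wild-type libraries. Library 3 was the highest of its group for 28 of the 34 genes and library 1 the lowest for 28. Above every 12-month wild-type library stood 21 genes in N40K library 1, 31 in library 2 and 31 in library 3. These rankings were not counted over all genes. Ttr was at 25.2, 223 and 2977 FPKM in the same N40K libraries, and its part in the result was not tested beyond a fit with Ttr as a covariate, in which 20 of the 26 were called higher. Calls over all genes in that fit are not given, so the 20 have no such share beside them. Without N40K library 3, 7 of the 11 calls held, without N40K library 2 also 7, and without wild-type library 2, 5. Irf9, Stat2, Irf7, Oasl2 and Gbp3 were called when any single library was left out, and Eif2ak2, Ifi27l2a, Ifit1, Ifit3, Parp9 and Usp18 lost the call in at least 1 such fit.

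Markers of other cell types were read beside these results. The 12 endothelial and mural cell markers were all detected and summed to 123 to 134 FPKM in 12-month N40K libraries and to 99.0 to 111 FPKM in 12-month wild-type libraries. Of these 12 markers, 4 were called higher in N40K (33.3%) and all 12 differences were positive, with a median of 0.24 (log2). For this and the next lists, the shares over all genes at 12 months were 11.2% higher and 7.71% lower. The 8 neuron markers summed to 2186 to 2245 FPKM in 12-month N40K libraries and to 2418 to 2540 FPKM in 12-month wild-type libraries, which do not overlap, with 0 called higher and 3 lower. The 8 oligodendrocyte markers summed to 1427 to 1516 FPKM in N40K and to 1585 to 1718 FPKM in wild-type libraries, again apart, and all 8 differences were negative with 0 called. Calls numbered 2 higher and 0 lower among the 6 hippocampal neuron markers, and 0 among the 8 astrocyte markers. The part of these lists in the interferon result was not tested. The 12 microglia markers summed to 306 to 313 FPKM in N40K and 295 to 333 FPKM in wild-type libraries at 12 months, with 0 called higher and 1 lower. The 13 markers of infiltrating leukocytes summed to 10.1 to 14.0 FPKM in N40K and to 9.21 to 11.0 FPKM in wild-type libraries. Of the 4 that passed the filter 0 were called, and all 4 differences were positive, with a median of 0.17 (log2). Siglech was the largest single part of the sum, at 6.12 to 7.19 FPKM over the 12 libraries. The sum therefore does not speak for the list as a whole. S100a8 and S100a9 were highest in 12-month N40K library 2, at 2.52 and 2.63 FPKM. The T cell gene Cd3e reached at most 0.0692 FPKM in any library. The 10 choroid plexus markers summed to 90.4 to 3739 FPKM in 12-month N40K libraries and to 1338 to 2714 FPKM in 12-month wild-type libraries, with 0 called.

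**Figure D3:**
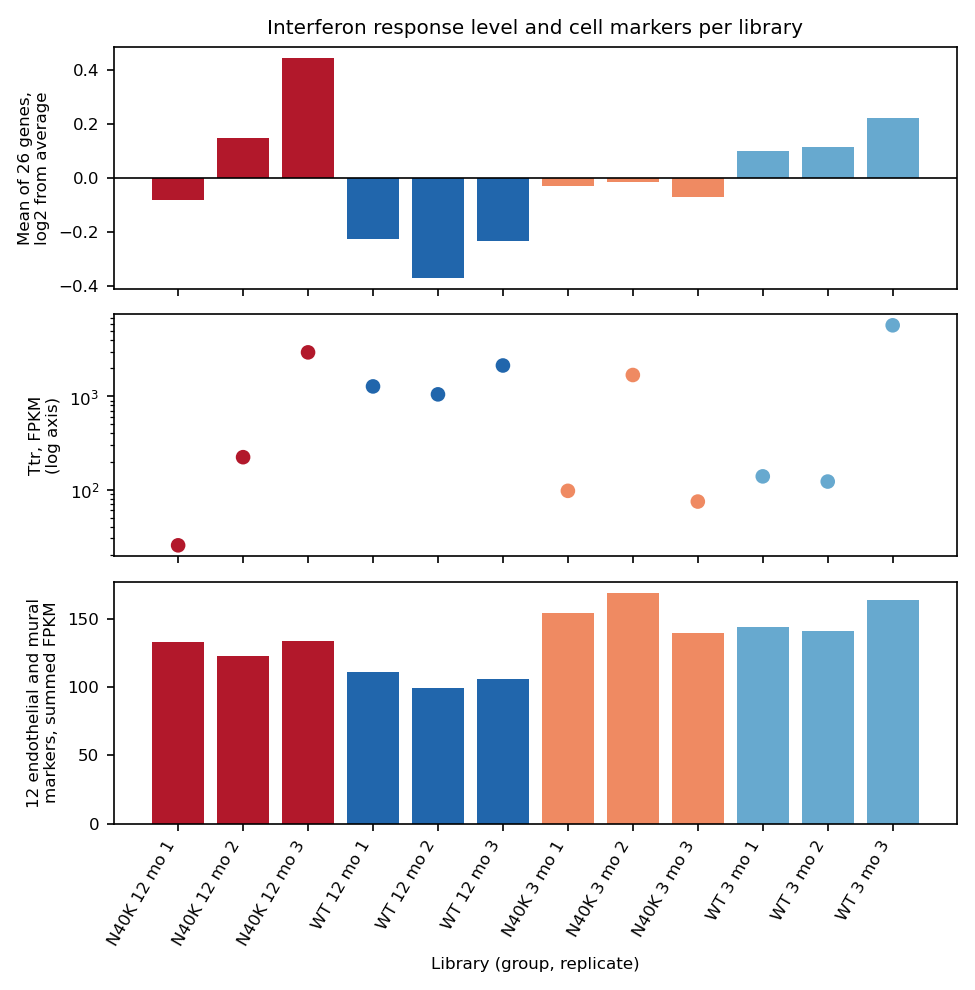
Mean level of the 26 tested interferon genes (top, log2 from the average library), Ttr in FPKM (middle, log axis) and the summed FPKM of 12 endothelial and mural markers (bottom) in each library. The interferon level ran from -0.37 in a 12-month wild-type library to 0.44 in 12-month N40K library 3.

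At 3 months the picture was different: 1 of the 26 tested genes was higher in N40K, Irf9, and 1 was lower, Gbp3. Over all genes 7.95% were called higher and 3.49% lower, so 3.85% of the members in either direction is below or near those shares. The median difference was -0.24, against 0.02 over all genes, and 21 of 26 differences were negative. Groups did not overlap for 12 of the 26 with N40K below (46.2%), where 11.5% of all genes did so, and for 2 with N40K above, where 20.4% did. Ifih1, Ifit1 and Usp18 reached 1 FPKM in 3-month wild-type libraries and in no 3-month N40K library. Within this comparison they passed the filter through the higher group alone, and all are among the genes with N40K below, so the counts carry that selection. Of the other 23 genes, 1 was called higher and 1 lower, with a median of -0.23. Median-ratio and quantile scaling left the members' median negative, at -0.25 and -0.27, while the calls over all genes moved to 768 higher and 668 lower and to 780 and 654, against 1109 and 487 without scaling. The endothelial and mural markers summed to 139 to 169 FPKM in N40K and to 141 to 163 FPKM in wild-type libraries at 3 months, and the neuron markers to 2181 to 2292 FPKM in N40K and to 2319 to 2599 FPKM in wild-type libraries, with 0 called in either list and their part not tested.

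Irf9 had 8.97, 8.16 and 8.04 FPKM in 3-month N40K libraries and 5.97, 5.84 and 7.04 FPKM in 3-month wild-type libraries. As at 12 months the groups were apart, and Irf9 rose by 0.37 ± 0.08 (limma adjusted p = 0.0178); the call was lost without N40K library 1, wild-type library 1 or wild-type library 2. Stat2 had 9.29, 9.19 and 9.20 FPKM in N40K and 7.97, 7.65 and 8.43 FPKM in wild-type libraries, without overlap, but its difference of 0.18 ± 0.07 did not pass (limma adjusted p = 0.124). Gbp3 had 2.44, 2.20 and 2.85 FPKM in N40K libraries and 3.94, 3.84 and 3.68 FPKM in wild-type libraries. Every N40K library was below every wild-type library, with a mean ratio of 0.654, and Gbp3 fell by 0.47 ± 0.08 (limma adjusted p = 0.0055), a call that held when any single library was left out.

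The next members by p at 3 months were Xaf1 at -0.24 ± 0.07 (limma adjusted p = 0.0544), Isg15 at -0.42 ± 0.15 (limma adjusted p = 0.0894) and Igtp at -0.27 ± 0.09 (limma adjusted p = 0.0982). Isg15 stood at 1.89, 1.96 and 1.95 FPKM in N40K libraries and at 3.07, 2.54 and 3.22 FPKM in wild-type libraries, again without overlap. Of the genes that rose at 12 months, Oasl2 had 1.30, 1.29 and 1.41 FPKM in 3-month N40K libraries and 1.88, 1.91 and 1.79 FPKM in wild-type libraries, a difference of -0.29 (limma adjusted p = 0.184). Ifit1 had 0.733, 0.853 and 0.579 FPKM in N40K libraries and 1.22, 1.39 and 1.25 FPKM in wild-type libraries, a difference of -0.41 (limma adjusted p = 0.332). Both genes thus had separate groups with N40K lower, in a comparison that did not reach the threshold. Ifit1 passed the filter here through the wild-type group alone. Leaving out a single library gave 1 to 4 lower calls, with 4 without 12-month N40K library 1 and 2 without 12-month N40K library 3 or 12-month wild-type library 2. It gave 0 to 2 higher calls, with 2 without 12-month wild-type library 2. With the 3-month groups fitted alone 5 members were called lower.

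In all, 21 of the 26 tested genes had a negative difference at 3 months and a positive one at 12 months, 4 were positive at both ages (Dhx58, Ifi35, Irf9 and Stat2), and Irf1 was positive at 3 months only. The contrast between the ages itself, the difference of the differences, had a positive sign for 25 of 26 genes, with a median of 0.49 (log2) against -0.01 over all genes. It was called for 1 member, Gbp3, and over all genes the share was 0.0359% higher and 0.0287% lower. Gbp3 differed by 0.89 ± 0.12 (limma adjusted p = 0.0246), with limma adjusted p from 0.0129 to 0.129 over all alternatives. The call held without N40K library 1 or wild-type library 1 or 3 of the 12-month groups or N40K library 1 of the 3-month group, and was lost without any 1 of the other 8 libraries. Without 12-month N40K library 1, 4 members were called, and without 3-month N40K library 1, 2. The next by p were Oasl2 at 1.06 ± 0.18 (limma adjusted p = 0.0869), Irf7 at 1.23 ± 0.25 (limma adjusted p = 0.114) and Ifit3 at 1.10 ± 0.26 (limma adjusted p = 0.142), and 19 of the 26 had an unadjusted p under 0.05. The share of all genes at that unadjusted level was not counted, so the 19 are a description only.

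**Figure D4:**
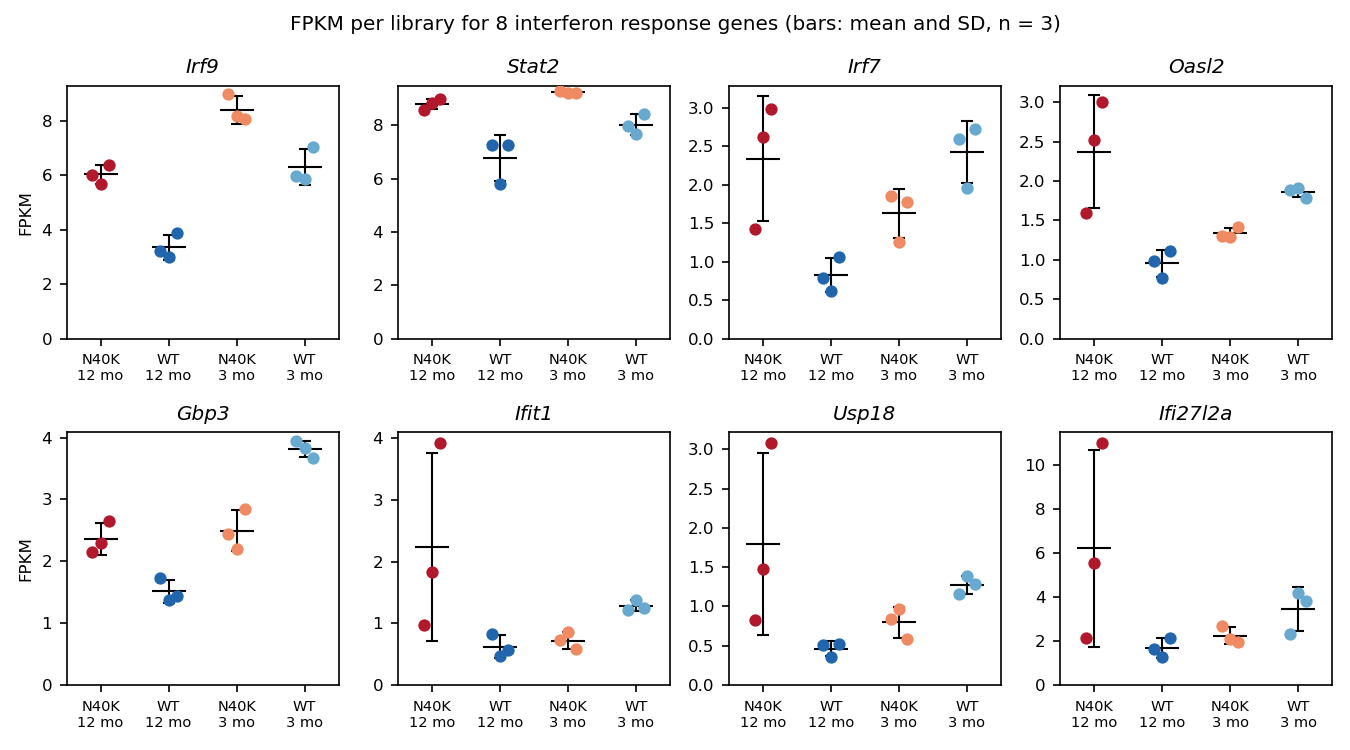
FPKM per library for 8 interferon genes in N40K and wild type at 12 and at 3 months, with the mean and SD (n = 3). Irf9 and Stat2 lay higher in N40K at both ages, and Gbp3 lay above wild type at 12 months and below it at 3 months.

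The age comparison within each genotype gives the same values from the other side. In wild-type hippocampus, 15 of the 26 tested genes were lower at 12 than at 3 months and 0 were higher. That is 57.7% of the tested genes, beside 29.0% of all genes called lower and 12.6% higher. The median difference was -0.36, against -0.08 over all genes. The groups did not overlap for 21 of the 26 with 12 months below (80.8%), where 34.5% of all genes did so, and for 0 with 12 months above, where 15.7% did. Dhx58, Ifih1, Ifit1, Rtp4 and Usp18 reached 1 FPKM in wild type at 3 months only, and of the other 21 genes 13 were called lower. The 12- and 3-month wild-type groups enter the genotype comparisons too, so these differences are not independent of those above. Under median-ratio and quantile scaling, 12 and 12 members were called lower, while the calls over all genes, 1756 higher and 4047 lower without scaling, changed to 2569 and 2499 with median-ratio scaling.

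Gbp3 fell to 1.51 ± 0.191 FPKM in 12-month wild-type libraries, against 3.82 ± 0.133 FPKM in 3-month wild-type libraries (SD, n = 3 each), a difference of -0.94 ± 0.08 (limma adjusted p = 2.07e-05). Irf9 fell by 0.75 ± 0.08 (limma adjusted p = 8.97e-05), with 3.35 ± 0.454 FPKM at 12 months and 6.29 ± 0.661 FPKM at 3 months. Irf7 averaged 0.821 ± 0.222 FPKM at 12 months and 2.43 ± 0.408 FPKM at 3 months, a ratio of 0.338, and fell by 0.91 ± 0.18 (limma adjusted p = 0.00197). In all 3 of these genes every 12-month wild-type library lay below every 3-month one.

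Bst2 averaged 4.50 ± 0.937 FPKM at 12 months and 11.1 ± 3.64 FPKM at 3 months in wild type and fell by 1.12 ± 0.26 (limma adjusted p = 0.00577), the largest decrease of the 26. The other genes that fell were Oasl2 (-0.55), Gbp2 (-0.56), Ifit3 (-0.73), Isg15 (-0.56), Igtp (-0.34), Ifi35 (-0.39), Parp9 (-0.29), Stat2 (-0.22), Usp18 (-0.64), Xaf1 (-0.20) and Dhx58 (-0.27), with limma adjusted p from 0.006 to 0.0446. Just outside stood Ddx58 at -0.30 (limma adjusted p = 0.0715), Trim25 at -0.23 (adjusted p = 0.0831) and Ifit1 at -0.50 (adjusted p = 0.124). Bst2, Gbp2, Gbp3, Ifit3, Irf7, Irf9, Isg15 and Oasl2 were called under every alternative in which they were tested. The other 7 lost the call in at least 1 fit with a library left out. With the replicate number as a block, Xaf1 and Dhx58 were not called (limma adjusted p = 0.0578 and 0.0576), nor were they when the 2 wild-type groups were fitted alone with that block (adjusted p = 0.0708 and 0.0566). Of the uncalled genes named here, Ddx58 was called in the first of these fits (adjusted p = 0.0340) and Ifit1 in the second (adjusted p = 0.0182). Lower calls numbered 9 in a fit with Xist as a term and also 9 without wild-type library 3 of the 3-month group. The summed endothelial and mural markers were at 99.0 to 111 FPKM at 12 months and 141 to 163 FPKM at 3 months in wild type, with 8 of 12 called lower and 1 higher. Over all genes 29.0% were called lower and 12.6% higher in this comparison. The oligodendrocyte markers had 5 of 8 called lower and 0 higher, and the part of either list in these results was not tested.

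In N40K hippocampus, 8 of the 26 tested genes (30.8%) were higher at 12 than at 3 months and 2 were lower, beside 15.1% of all genes called higher and 36.5% lower. The median difference was 0.19, against -0.10 over all genes. The groups did not overlap for 8 of 26 with 12 months above and for 3 with 12 months below, where 19.1% and 43.7% of all genes did so. Ifih1, Ifit1 and Usp18 reached 1 FPKM in N40K at 12 months only, and of the other 23 genes 6 were called higher and 2 lower. The endothelial and mural markers summed to 123 to 134 FPKM at 12 months and to 139 to 169 FPKM at 3 months in N40K. Of these 12 markers 2 were called higher and 3 lower, with a median of -0.15, against -0.10 over all genes. Among the oligodendrocyte markers 5 of 8 were called lower and 0 higher, and the part of these marker lists was not tested. Oasl2 averaged 2.38 ± 0.717 FPKM at 12 months and 1.34 ± 0.067 FPKM at 3 months and rose by 0.51 ± 0.13 (limma adjusted p = 0.00691). Ifit1 averaged 2.24 ± 1.52 FPKM at 12 months and 0.722 ± 0.138 FPKM at 3 months and rose by 0.81 ± 0.24 (limma adjusted p = 0.0163). Ifi27l2a rose by 0.95 ± 0.37 (limma adjusted p = 0.0488) and Usp18 by 0.56 ± 0.22 (limma adjusted p = 0.0493).

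Smaller rises with age in N40K were those of Ifit2 (0.27), Eif2ak2 (0.36), Xaf1 (0.21) and Dtx3l (0.18), with limma adjusted p from 0.00765 to 0.0323. Irf9 fell by 0.42 ± 0.08 (limma adjusted p = 0.00176), with 6.03 ± 0.351 FPKM at 12 months and 8.39 ± 0.502 FPKM at 3 months, and Irf1 fell by 0.39 ± 0.11 (limma adjusted p = 0.0119), with 4.12 ± 0.541 and 5.68 ± 0.597 FPKM. Gbp3 differed by -0.05 ± 0.08 in N40K (limma adjusted p = 0.628). The next by p were Irgm1 at 0.41 (limma adjusted p = 0.0649), Igtp at 0.21 (adjusted p = 0.0874) and Rtp4 at 0.44 (adjusted p = 0.0967). Eif2ak2, Ifit2, Irf9 and Oasl2 were called in every fit with a library left out, and the higher calls ran from 3, without N40K library 3 of the 3-month group, to 13, without N40K library 1 of the 12-month group. Without N40K library 3 of the 12-month group 4 members were called higher, without library 2 of that group 5, and without library 1 of the 3-month group 4. Irf1 lost its call without N40K library 2 of the 3-month group. Calls over all genes were 2111 higher and 5089 lower, and 3104 and 2915 under median-ratio scaling, when 10 members were called higher.

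**Figure D5:**
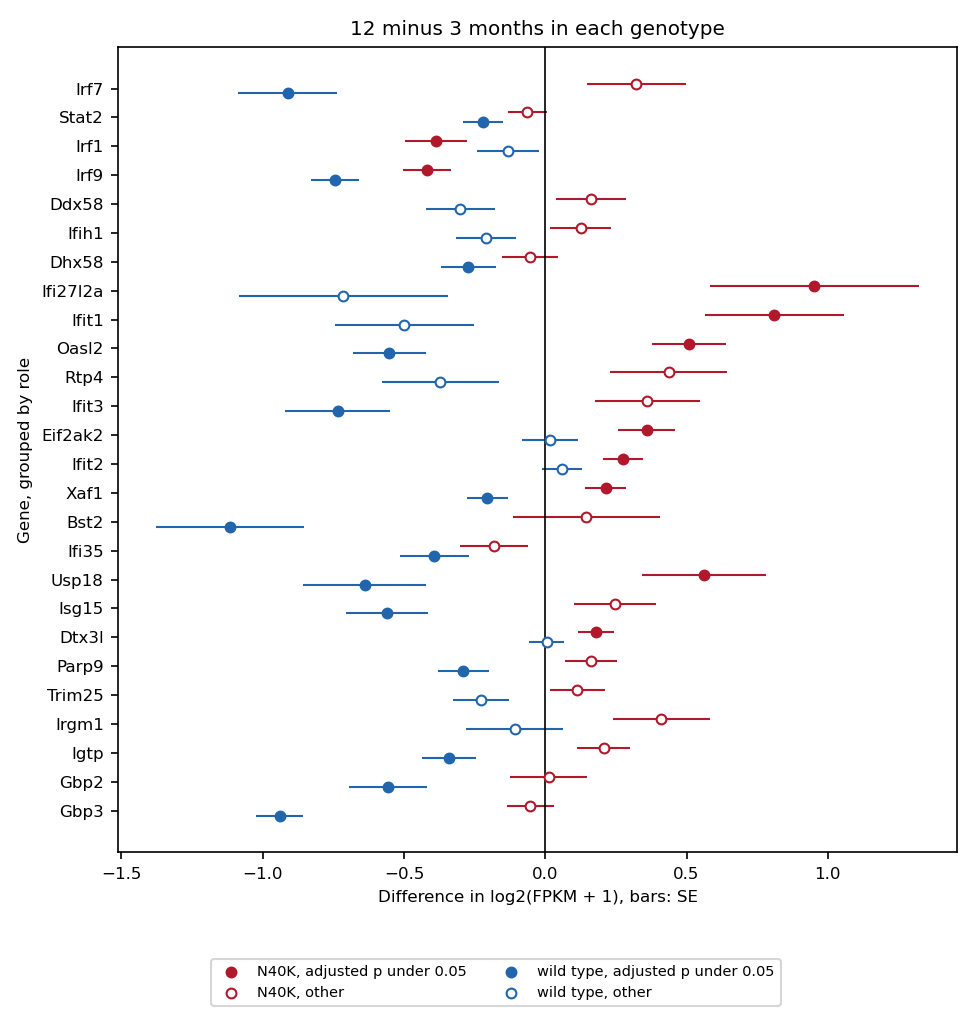
Difference 12 minus 3 months in log2(FPKM + 1) for the 26 tested interferon genes (rows, grouped by role) in N40K (red) and in wild type (blue), with SE bars. Filled points passed an adjusted p of 0.05. In wild type 15 genes are filled left of 0, and in N40K 8 are filled right of it.

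Set side by side, 8 genes were called higher in N40K at 12 months and lower with age in wild type: Gbp3, Ifit3, Irf7, Irf9, Oasl2, Parp9, Stat2 and Usp18. These comparisons share the 12-month wild-type libraries, so low values there count toward both. Over all genes 11.2% were called higher in the first and 29.0% lower in the second. The share of all genes called in both was not counted, so the 8 are a description and not a trait set apart from other genes. For Gbp3 the group means were 2.37 FPKM in 12-month N40K, 1.51 FPKM in 12-month wild type, 2.50 FPKM in 3-month N40K and 3.82 FPKM in 3-month wild type. For Irf7 they were 2.34 FPKM in 12-month N40K, 0.821 FPKM in 12-month wild type, 1.63 FPKM in 3-month N40K and 2.43 FPKM in 3-month wild type. In both genes the 12-month wild-type group was thus the lowest and the 3-month wild-type group the highest. The other genes differed in their highest group. Irf9 and Stat2 were highest in 3-month N40K (8.39 and 9.23 FPKM), and Oasl2, Parp9 and Usp18 in 12-month N40K (2.38, 1.75 and 1.79 FPKM). Ifit3 had 5.73 FPKM in 3-month wild type and 5.72 FPKM in 12-month N40K.

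Other genes of the pathway were read from lists by role. All 15 interferon ligand genes in the table lay below 0.1 FPKM in every library, and 7 were listed at 0 in all of them. Ifnb1, the first type I interferon of many infected cells, was listed above 0 in 1 of the 12 libraries, at 0.0287 FPKM in a 3-month N40K library, and Ifng, interferon gamma, reached at most 0.0296 FPKM, in a 3-month wild-type library. Of 10 tested receptor and signalling genes, 1 was called higher at 12 months, near the 11.2% of all genes, and 0 at 3 months, where limma gave 3 at an unadjusted p under 0.05. For this and the next list, the share of all genes at that unadjusted level was not counted. Without 12-month wild-type library 1 the 12-month count was 2. The gene called was Ifnar1, the type I interferon receptor chain, with means of 7.19 FPKM in N40K and 5.78 FPKM in wild type at 12 months and a difference of 0.27 ± 0.05 (limma adjusted p = 0.00473) that was called under every alternative.

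Of 11 tested genes of nucleic acid sensing, 0 were called between the genotypes at either age by limma, with 3 at an unadjusted p under 0.05 at 12 months and 1 at 3 months. The 12 tested genes of a list that restrains interferon signalling gave 1 higher call at each age, near the 11.2% of all genes called higher at 12 months and the 7.95% at 3 months. Samhd1, which depletes nucleotides, rose by 0.29 at 12 months (limma adjusted p = 0.0173), a call lost without 12-month N40K library 1. Trex1, a nuclease that clears cytosolic DNA, rose by 0.24 at 3 months (limma adjusted p = 0.0171), a call lost without 3-month N40K library 2 or 3 or 3-month wild-type library 2. A further list of interferon-stimulated genes, also chosen with earlier results of these data known, had 36 tested entries of 65 named. Of these 36, 7 (19.4%) rose at 12 months while 0 fell, beside 11.2% and 7.71% of all genes. Their median difference was 0.24, against 0.0066 over all genes, and 33 of 36 were positive. They included Gbp9 (0.48, limma adjusted p = 0.00297), Herc6, the mouse ligase for ISG15 (0.38, adjusted p = 0.0111), Uba7, its activating enzyme (0.34, adjusted p = 0.0113), Sp100 (0.36, adjusted p = 0.0160), Parp12 (0.33, adjusted p = 0.0165) and Gbp7 (0.26, adjusted p = 0.0297). At 3 months 0 of the 36 rose and Cmpk2, a mitochondrial nucleotide kinase, fell by 0.25 (limma adjusted p = 0.0077). In wild type 19 of the 36 (52.8%) were lower at 12 than at 3 months and 0 were higher, beside 29.0% and 12.6% of all genes. In N40K 5 were higher and 5 lower (13.9% each), beside 15.1% and 36.5% of all genes, so the higher share was near that of all genes. The number that rose at 12 months was 4 without N40K library 2 or 3 and 3 without wild-type library 2, while Gbp9, Herc6 and Uba7 were called in every fit with a library left out.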

How the data were processed

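Poly-A RNA of mouse hippocampus was sequenced as paired 100 bp reads, per the labels' protocols. The extraction text there speaks of tumour samples, although the tissue label is hippocampus. The authors deposited FPKM values in 1 table with a column per library, and all 12 columns matched the labels. CASAVA, STAR, BWA and mm9 are named without roles in the submitters' processing notes. The sources used here do not give the counting tool, the annotation or the strand setting, and overlapping genes are therefore marked uncertain. FPKM summed to between 309358 and 350760 in a library. Low FPKM values move in steps of whole reads, and these steps gave the depth. Only 51.9% to 73.8% of them were whole to within 0.02 read, which makes the depths approximate, and counts were not tested. Low genes rest on few reads, which limits their precision.

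Values were analysed as log2(FPKM + 1), with a pseudocount of 1, for the 13945 entries with at least 1 FPKM in at least 3 libraries. This scale understates changes of low genes. One limma model (limma 3.58.1, R 4.3.3) with a mean per group over all 12 libraries, eBayes with trend and two-sided tests gave every contrast, with Benjamini-Hochberg adjustment over all entries tested and a threshold of 0.05. The interferon genes and the other lists were chosen with earlier results of these data known. Statistics are given for each interferon gene called and the 3 uncalled genes of smallest p per contrast, and for called genes of other lists, at most 6 each. Others are described by values. The alternatives changed the pseudocount to 0.1 or 0.5, dropped the filter or required a mean of 5 FPKM, scaled by median ratio or by quantiles, used robust eBayes, added Xist, Ttr or the replicate number as a term, fitted each pair of groups alone, and left out each library. Replicate numbers were taken as pairs only for the wild-type age comparison. There the deviations of same-numbered libraries from their group means correlated at 0.25 to 0.34 in all 3 pairs, and no label states a pairing. Over all groups, the correlation was over 0.1 in 7 of 18 same-numbered pairs and in 13 of 36 other pairs. The numbers are thus weak ground for a pairing. A fit of the 2 wild-type groups with the number as a block was added after seeing the data. The procedure was tested on simulated data. Overlaps came from GENCODE M21 and promoters from RefSeq. Tables and plots were made in Python 3.11.15 (numpy 2.4.6, pandas 2.3.3, matplotlib 3.10.9).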

Additional observations from a re-analysis of the deposited data

Results flagged for a closer look

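The N40K minus wild type difference of Gbp3 was itself different between the ages, by 0.89 on the log2 scale at 12 relative to 3 months, in a direct limma test of that difference (adjusted p = 0.0246). Gbp3 was above wild type in all 3 N40K libraries at 12 months and below it in all 3 at 3 months. The difference was not called in 8 of the 12 fits with a library left out, nor with the replicate number as a block (limma adjusted p = 0.0883), with Xist as a covariate (0.0741) or without a filter on low values (0.0577), and the adjusted p ran from 0.0129 to 0.129 over all alternatives.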

How the results depend on the processing

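The alternatives were run for the counts of called genes, for the interferon genes called, the next 3 by p in each comparison and the called genes named from other lists, and none of these differences changed sign. They were not run for the marker lists, the genes below the filter or the other uncalled genes. Calls over all genes are given at most for the main fit and the 2 scalings. Counts under the other alternatives therefore have no share of all genes beside them. The 11 interferon genes called higher at 12 months were 2 of 3 tested with a mean of at least 5 FPKM, 20 with Ttr as a covariate, 5 with the pair of groups fitted alone, and 5 to 13 with a library left out. At 3 months the single higher call became 0 to 2 with a library left out. The single lower call became 0 with a mean of at least 5 FPKM, 3 with quantile normalization, 2 with median-ratio scaling, 5 with the pair of groups fitted alone and 1 to 4 with a library left out. The single call for the difference between the ages became 0 without a filter, with a mean of at least 5 FPKM and with Xist as a covariate, 3 with Ttr as a covariate, and 0 to 4 with a library left out. The 15 genes lower with age in wild type became 3 with a mean of at least 5 FPKM, 9 with Xist as a covariate and 9 to 18 with a library left out. The 8 genes higher with age in N40K became 0 with a mean of at least 5 FPKM, 4 with Xist as a covariate, 3 with the pair fitted alone and 3 to 13 with a library left out, and the 2 lower ones 1 with a mean of at least 5 FPKM, 1 with median-ratio scaling and 1 to 2 with a library left out. The higher mean leaves 3 members to test. The cause of the other changes was not tested.

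For the other lists, receptor genes called higher with Ttr as a covariate were 4 at 12 months and 1 at 3 months, and 1 to 2 at 12 months with a library left out. Sensing genes gave 1 higher call at 3 months with Ttr, and at 12 months 1 lower call with quantile normalization and 0 to 1 with a library left out. Restraint genes gave 0 to 2 higher calls at 3 months, 0 to 1 at 12 months and 0 to 1 lower calls for the difference between the ages with a library left out. The further interferon-stimulated genes called higher at 12 months were 0 with a mean of at least 5 FPKM, 20 with Ttr and 3 to 9 with a library left out, and 1 was lower with quantile normalization. At 3 months 1 was higher with Ttr, 1 with the pair fitted alone and 0 to 2 with a library left out, and 2 were lower without a filter, 2 with quantile normalization and 1 to 2 with a library left out. For the difference between the ages 1 was higher with quantile normalization and 0 to 2 with a library left out. Of 1501 alternative values of single genes, 1291 kept their side of the threshold, 170 lost the call and 40 gained it.

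Same-numbered libraries of the groups compared between genotypes, and of N40K between the ages, had correlations of their deviations from the group means from -0.46 to 0.20, with 1 of 9 over 0.1, and the numbers were not taken as pairs there. The wild-type groups of both ages are the exception among the comparisons made (0.25 to 0.34 in 3 of 3 pairs), and with a block in those groups alone, an alternative chosen after seeing the data, 16 interferon genes were called lower with age. All 3 pairs of 12-month N40K with 3-month wild type, which are not compared directly, were also over 0.1 (0.25 to 0.72). With the replicate number as a block, 13 interferon genes were called higher at 12 months, 14 lower with age in wild type and 0 for the difference between the ages, where Gbp3 had 0.89 with a limma adjusted p of 0.0883. Calls over all genes in the block fits are not given. With 3 libraries a group, the spread of a low gene differed between the groups. SDs were 1.52 FPKM for Ifit1 and 1.16 FPKM for Usp18 in 12-month N40K libraries. In 3-month wild-type libraries, where each gene averaged 1.28 FPKM, the SDs were 0.0894 FPKM for Ifit1 and 0.115 FPKM for Usp18.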
